A study of Rattus norvegicus with 30 samples.

Results

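WY-14643 (pirinixic acid) at 200 µM was compared with vehicle after 24 h in cultured rat hepatocytes. The comparison used the 5 arrays titled 24 h and 200 µM and the 5 titled 24 h and 1% DMSO, 10 of the 30 arrays in the series. The other 20 arrays hold 8 µM at 24 h and vehicle, 8 µM and 200 µM at 48 h, with 5 wells in each group. The cells were frozen hepatocytes of male Sprague Dawley rats, bought from a supplier, plated on collagen and covered with Matrigel. They were dosed on day 3 of culture, and total RNA of each well was hybridised to 1 Affymetrix rat array. All groups share this culture, including the vehicle wells. The vehicle wells are labelled 1% DMSO, and the 100X dosing stocks are themselves described as made in 1% DMSO. How much DMSO the treated wells received is therefore uncertain. The labels call the wells independent cultures and do not say whether different wells held cells of different animals. Errors and p-values therefore measure the spread between wells. No age of the animals was given in the labels.

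WY-14643 is a peroxisome proliferator and a ligand of PPARα, a nuclear receptor for fatty acids that is abundant in hepatocytes. PPARα binds DNA as a heterodimer with a retinoid X receptor at direct repeats of a hexamer spaced by 1 base. In rodent liver it is known for raising the genes of fatty acid uptake, of mitochondrial and peroxisomal fatty acid oxidation and of microsomal ω-hydroxylation, for raising ketone body production in fasting, and for the growth in number of peroxisomes.

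Expression is given as the deposited signal of a probe set and differences as log2 fold changes of signal + 16, 200 µM minus vehicle, with the standard error (SE) of the limma fit and 5 wells a group. A gene was called when its p, adjusted over all 11545 genes tested by the Benjamini-Hochberg method, was under 0.05. Signals of different probe sets have no common scale, so levels are compared between wells and not between genes. Where the signal of every well is given, the 5 treated wells lay wholly above or wholly below the 5 vehicle wells unless an overlap is stated. The 10 arrays had median signals between 391 and 439, and each had a median correlation across genes of 0.973 to 0.978 with the others of its group. An array of the 48 h vehicle group, replicate 4, stood apart with a median signal of 764, against 383 to 439 on the other 29. It enters the common estimate of spread and, in every 48 h comparison, the mean of the vehicle wells. With that array left out, 1690 genes were called up and 1881 down, in place of 1344 and 1509. With each array centred on its median 683 were called up and 670 down, and 1656 and 1609 with centring and that array left out, an alternative chosen after seeing the data. Counts of gene lists after centring, given below, kept that array and stand against the 683 and 670 genes.

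Of the 11545 genes tested, 1344 (11.6%) were called up and 1509 (13.1%) down at 24 h. These shares are the background for the counts of gene lists below. The 5 treated wells all lay above or all below the 5 vehicle wells for 2463 genes (21.3% of those tested), and this held for 1020 of the genes called up and 1159 of those called down. Large changes were mainly increases. At least 2-fold changes were found in 212 genes called up and 146 called down, at least 4-fold changes in 43 and 9, and at least 8-fold changes in 14 and 0. The median change of a called gene was modest, 0.43 for the rises and -0.45 for the falls, against a median of -0.02 over all genes.

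**Figure D1:**
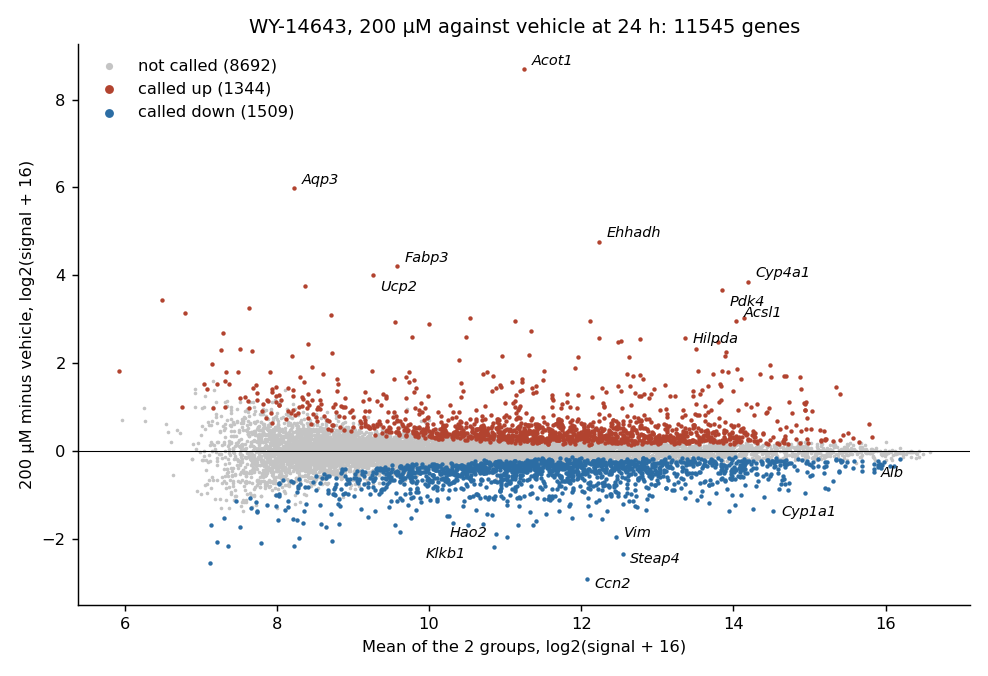
Difference between 200 µM WY-14643 and vehicle at 24 h against the mean level of the 2 groups, both as log2(signal + 16), 1 point for each of 11545 genes. Red points are the 1344 genes called up and blue the 1509 called down. The points at 4 or above are Acot1, Aqp3, Ehhadh, Fabp3 and Ucp2, while no gene lies below -3.

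The cells carried the markers of hepatocytes in both groups. Albumin (Alb) had signals of 68496, 78163, 84929, 73216 and 76871 in the vehicle wells and 65215, 79588, 71017, 77802 and 76060.1 in the treated wells. Those wells overlapped, and the log2 fold change was -0.05 ± 0.08 (adjusted p = 0.76). Transthyretin (Ttr) had signals of 61625, 62217, 73469, 61959 and 67741 in the vehicle wells and 61189.7, 65696, 66251, 64646 and 67389 in the treated wells, also overlapping, with a log2 fold change of -0.01 ± 0.08 (adjusted p = 0.98). Of 14 hepatocyte markers measured, 1 was called up, the asialoglycoprotein receptor chain Asgr1 (0.33), and 4 were called down, tyrosine aminotransferase (Tat, -0.76), Cps1 (-0.33), Ahsg (-0.26) and Asgr2 (-0.23). Their summed signal was 761605 to 902011 in the vehicle wells and 708745 to 783789 in the treated wells.

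Markers of other liver cells were detected in part. The summed signal of the 11 Kupffer cell and leukocyte markers measured was 30470 to 34705 in the vehicle wells and 24490 to 28332 in the treated wells, with no overlap, and Lyz2 (-0.50) and Cd68 (-0.44) were called down. The general leukocyte marker Ptprc did not pass the filter on low signals. The sum over 8 stellate cell and fibroblast markers was 4485 to 5016 against 3847 to 4304, with Acta2 called down (-1.24) and Lrat, Pdgfrb, Lum and Ngfr below the filter. Over 4 cholangiocyte markers it was 9276 to 11541 against 7953 to 8649, with Epcam called down (-0.34) and Krt7, Spp1 and Cftr below the filter. Over 6 endothelial markers the ranges overlapped, 2661 to 3391 against 2381 to 3248, with Lyve1 called down (-0.53) and Vwf, Emcn and Flt1 below the filter. The part of these cells in the results below was not tested, and fewer cells of a type cannot be told apart from less RNA per cell in bulk samples.

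RNA quality controls also moved with the treatment by a small amount. The ratio of the 3′ to the 5′ β-actin control probe sets was 2.86 ± 0.28 (SD, n = 5) in the vehicle wells and 3.31 ± 0.17 (SD, n = 5) in the treated wells, a difference of 0.45 (two-sided exact permutation p = 0.024, 0.04 after adjustment for 2 ratios). Leaving out treated replicate 1, 2 or 3 gave an exact p of 0.056 each. The ratio for GAPDH went the other way, from 1.19 ± 0.02 to 1.16 ± 0.02 (SD, n = 5, exact p = 0.04). Their part in the results was not tested.

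The acyl-CoA thioesterases, which cut fatty acids from coenzyme A, held the largest rise of all. Of 10 measured, 9 were called up, against 11.6% of all genes, and 0 down, with a median log2 fold change of 1.70. Signals of Acot1, the cytosolic enzyme, were 172, 57.7, 122, 137 and 69.5 in the vehicle wells and 48109, 51439, 53835, 46327 and 48204 in the treated wells. All vehicle wells were under the filter signal of 281.361, so the fitted change (8.69 ± 0.41, adjusted p = 6.4e-18) depends on the constant added before the log, and against the filter signal the rise was at least 167-fold. Acot2, the mitochondrial enzyme, had signals of 6426, 5571, 6193, 5583 and 6295 in the vehicle wells and 33516, 34574, 33644, 32762 and 34579 in the treated wells (log2 fold change 2.49 ± 0.08, adjusted p = 1.7e-22). Acot4, a peroxisomal thioesterase, rose by 2.48 ± 0.11 and Acot3 by 2.08 ± 0.26. Acot12, an acetyl-CoA hydrolase of the cytosol, rose by 1.75 ± 0.12 and Acot7 by 1.65 ± 0.09. Smaller rises were called for Them4 (0.78 ± 0.11) and the peroxisomal Acot8 (0.70 ± 0.10). Acot1 to Acot4 are close paralogs, and a probe set of 1 may also read transcripts of another.

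The microsomal ω-hydroxylases Cyp4a1 and Cyp4a3 rose, while those of the Cyp4f family that were called fell. Cyp4a1 had signals of 4680.3, 4458, 5417, 4752 and 5247 in the vehicle wells and 70956, 67117, 81788, 66100.4 and 71070.2 in the treated wells (log2 fold change 3.86 ± 0.09, adjusted p = 8.2e-26). The groups were far apart, and the same held for Cyp4a3, with signals of 6284, 4894, 7603, 5909 and 7138 in the vehicle wells and 47565, 51465, 54022, 50920.4 and 53396 in the treated wells (log2 fold change 3.03 ± 0.08, adjusted p = 6.9e-24). The Cyp4a genes are near copies of each other, so each probe set may read more than 1 of them. Cyp4f1 fell (-0.68 ± 0.14), as did Cyp4f4 (-0.38 ± 0.11) and Cyp4f6 (-0.29 ± 0.08), and none of these falls was called with each array centred on its median (adjusted p = 0.056, 0.18 and 0.37). The soluble epoxide hydrolase Ephx2 rose (1.37 ± 0.07). Of 12 fatty acid hydroxylases and related genes measured, 3 were called up and 3 down.

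The carnitine shuttle, which carries long acyl chains into mitochondria, had 7 of 14 measured members called up and 1 down, with a median of 0.58. Cpt1a, the liver form of the rate-limiting outer membrane carnitine palmitoyltransferase, had signals of 1933, 1427, 1923, 1259 and 1489 in the vehicle wells and 12105, 12988, 12366, 12467 and 12029.5 in the treated wells (log2 fold change 2.96 ± 0.10, adjusted p = 4.4e-22). A second probe set of Cpt1a rose by 0.73 ± 0.15 (adjusted p = 5.3e-04). The muscle form Cpt1b rose by a similar amount, from 831, 842, 898, 623 and 763 to 6171, 5666, 5715, 7036 and 6651 (log2 fold change 2.96 ± 0.13, adjusted p = 6.8e-19). Further along the shuttle, Cpt2 of the inner membrane rose by 1.29 ± 0.09 and the carnitine-acylcarnitine translocase Slc25a20 by 1.11 ± 0.09. Crat and Crot, the short-chain and the peroxisomal acyltransferase, rose by 2.14 ± 0.11 and 1.71 ± 0.06, and the plasma membrane carnitine transporter Slc22a5 by 1.81 ± 0.10. Bbox1, the last enzyme of carnitine synthesis, fell by a small amount (-0.26 ± 0.09).

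Mitochondrial β-oxidation was called up in 16 of 20 genes measured and down in 2, with a median of 0.82. Signals of Acadm, the medium-chain acyl-CoA dehydrogenase, were 5961, 6325, 6736, 6606 and 5837 in the vehicle wells and 21770.3, 21433, 21438, 22337 and 23927 in the treated wells (log2 fold change 1.82 ± 0.07, adjusted p = 6.1e-21). Hadha, the α subunit of the trifunctional protein, had signals of 7797, 7158, 7807, 7081 and 8154 in the vehicle wells and 19335, 20244, 19424, 19442 and 21261 in the treated wells (log2 fold change 1.39 ± 0.07, adjusted p = 6.4e-18), and its partner Hadhb rose by 1.07 ± 0.07. Acadvl, for very long chains, rose by 1.07 ± 0.05, and Acaa2, the thiolase of the last step, by 1.46 ± 0.09. Mlycd, which removes the malonyl-CoA that inhibits Cpt1, rose by 1.32 ± 0.05, and Eci1, the isomerase for unsaturated chains, by 1.28 ± 0.08. Hadh, the short-chain dehydrogenase, rose by 0.92 ± 0.06. Against this, Echs1, the short-chain hydratase, fell (-0.30 ± 0.08), as did Acad9 (-0.21 ± 0.07), an acyl-CoA dehydrogenase best known as an assembly factor of complex I.

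Peroxisomal β-oxidation had 13 of 18 measured genes called up and 1 down, with a median of 0.84. Ehhadh, the bifunctional enzyme, had signals of 889, 915, 917, 920.1 and 921 in the vehicle wells and 23753, 24486, 26084, 24229 and 27480.0 in the treated wells (log2 fold change 4.76 ± 0.17, adjusted p = 3.5e-21). The vehicle wells were nearly equal, and every treated well lay far above them. Hacl1, of α-oxidation, rose by 2.31 ± 0.07, Eci2 by 1.96 ± 0.08 and the dienoyl-CoA isomerase Ech1 by 1.68 ± 0.08. The coenzyme A diphosphatase Nudt7 rose by 1.76 ± 0.06, the reductase Decr2 by 1.25 ± 0.08, the protease Lonp2 by 1.11 ± 0.06 and Hsd17b4, the second bifunctional enzyme, by 1.06 ± 0.07. Acox2, the oxidase for branched chains and bile acid precursors, fell (log2 fold change -0.96 ± 0.14, adjusted p = 2.8e-06).

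Genes of peroxisome formation moved less, with 8 of 19 called up, 2 down and a median of 0.26. Pex11a, a factor of peroxisome division, had signals of 8023, 8518, 8339, 8851 and 8995 in the vehicle wells and 23767, 24272, 25717, 23138 and 25342 in the treated wells (log2 fold change 1.51 ± 0.06, adjusted p = 1.8e-19). Pex16 and Pex19, which place membrane proteins, rose by 0.99 ± 0.09 and 0.72 ± 0.08, Pex3 by 0.54 ± 0.07 and Pex13 by 0.44 ± 0.07. Of 13 genes of peroxisomal oxidases and hydrogen peroxide removal 5 were called up and 6 down. Catalase (Cat), which removes hydrogen peroxide, rose by 0.41 ± 0.07 and the alanine-glyoxylate transaminase Agxt by 1.25 ± 0.09. The falls were the hydroxyacid oxidases Hao2 (-1.97 ± 0.15) and Hao1 (-1.02 ± 0.13), the polyamine oxidase Paox (-0.89 ± 0.11), urate oxidase Uox (-0.88 ± 0.07), xanthine dehydrogenase Xdh (-0.51 ± 0.10) and D-amino acid oxidase Dao (-0.27 ± 0.09, adjusted p = 0.026, named after its value was seen).

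**Figure D2:**
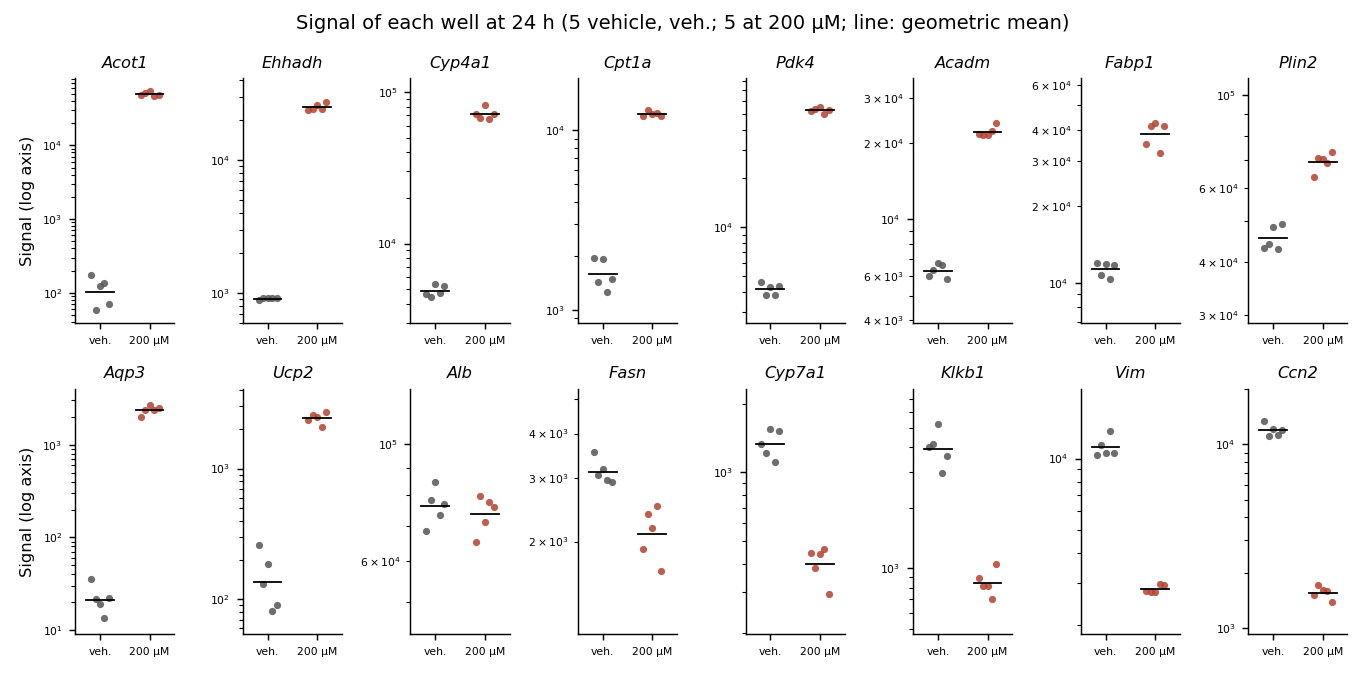
Signal of each well at 24 h on a log axis for 16 genes, 5 vehicle wells in grey and 5 wells at 200 µM in red, with the geometric mean of each group as a line and a separate axis for each gene. The groups are apart for every gene shown except Alb, from the nearly constant 889 to 921 of the Ehhadh vehicle wells to the overlapping albumin wells.

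Fatty acid uptake and activation had 10 of 25 measured genes called up and 6 down. Fabp3, a fatty acid binding protein better known from heart, had signals of 359, 116, 122, 232 and 87.4 in the vehicle wells and 3565, 2997, 3189.9, 3095 and 3482 in the treated wells (log2 fold change 4.21 ± 0.26, adjusted p = 1.1e-14). Fabp1, the liver form, had signals of 11969, 10744, 11850.4, 10365 and 11715 in the vehicle wells and 35222, 41524, 42437, 32411 and 41448 in the treated wells (log2 fold change 1.76 ± 0.09, adjusted p = 1.9e-17). Cd36, a membrane translocase, rose from 908, 819, 1244, 869 and 1171 to 5773, 7019, 6522, 6680.3 and 7208 (log2 fold change 2.72 ± 0.13, adjusted p = 7.6e-18). Acsl1, the main long-chain acyl-CoA synthetase of liver, had signals of 6862, 5868, 6065, 5651 and 5818 in the vehicle wells and 44971, 46342, 48144, 46442 and 48196 in the treated wells (log2 fold change 2.95 ± 0.10, adjusted p = 2.7e-21), and a second probe set rose by 4.21 ± 0.21 (adjusted p = 8.1e-17). Acsl3 rose by 1.90 ± 0.10, the medium-chain synthetase Acsm5 by 1.12 ± 0.08 and the very long-chain synthetase Slc27a2 by 0.92 ± 0.07. Acss2, which activates acetate, fell (-0.76 ± 0.07).

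Ketogenic and fasting signals had 9 of 18 called up and 0 down, with a median of 0.48. Pdk4, the kinase that shuts off pyruvate dehydrogenase, had signals of 4563, 3840.1, 4255, 3828 and 4358 in the vehicle wells and 52025, 53762, 55059, 50087 and 52612 in the treated wells (log2 fold change 3.66 ± 0.09, adjusted p = 5.8e-25). Angptl4, a secreted inhibitor of lipoprotein lipase, had signals of 7337, 5550.1, 8825, 5947 and 8076 in the vehicle wells and 31543, 34936, 33619.9, 32537 and 34230.3 in the treated wells (log2 fold change 2.24 ± 0.13, adjusted p = 1.1e-15). The hormone Fgf21 rose from 1379.7, 1201, 1654, 1218 and 1837 to 3165, 4186, 3463, 2949 and 3889 (log2 fold change 1.28 ± 0.11, adjusted p = 8.2e-11). Vnn1, a pantetheinase, rose by 2.15 ± 0.09, Txnip by 2.15 ± 0.07, Acat1, the acetoacetyl-CoA thiolase, by 1.81 ± 0.06, and Creb3l3, a fasting transcription factor, by 1.47 ± 0.09. Pck1, the cytosolic gatekeeper of gluconeogenesis, rose by 2.17 ± 0.19.

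Lipid droplet genes had 13 of 24 called up and 1 down, with a median of 0.50. Hilpda, an inhibitor of triglyceride lipase, had signals of 3962, 4271, 4037, 4743 and 4582 in the vehicle wells and 25549, 26612, 26267, 23873 and 25424 in the treated wells (log2 fold change 2.56 ± 0.06, adjusted p = 1.4e-25). The lipase itself, Pnpla2, had signals of 4078, 3266, 3777, 3379.8 and 3606 in the vehicle wells and 11240.1, 12878, 11191, 11105 and 12645 in the treated wells (log2 fold change 1.70 ± 0.08, adjusted p = 1.6e-17), and its second inhibitor G0s2 rose by 1.81 ± 0.11. Coat proteins rose by different amounts, Plin5 by 1.44 ± 0.11, Plin2 by 0.60 ± 0.08 and Cidec by 0.42 ± 0.11. A second probe set of Plin2 rose by 1.72 ± 0.08, above the change of the brighter one. Plin4 was not called (-0.43 ± 0.31, adjusted p = 0.36). Monoglyceride lipase Mgll rose by 1.22 ± 0.09, the carboxylesterase Ces1d by 1.36 ± 0.11 and lysosomal acid lipase Lipa by 0.85 ± 0.06. Pnpla3 fell (log2 fold change -1.14 ± 0.15, adjusted p = 2.0e-07).

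Of 14 genes of glycerol handling 8 were called up and 4 down, with a median of 0.50. Aqp3, a channel for glycerol, had signals of 35.4, 21.9, 19.2, 13.6 and 22.2 in the vehicle wells and 1995, 2387, 2640.0, 2375 and 2489 in the treated wells. All vehicle wells were under the filter signal, against which the rise was at least 8.01-fold (log2 fold change 5.98 ± 0.23, adjusted p = 4.3e-20). Aqp7, a second glycerol channel, had signals of 2173, 1885, 1841, 2199 and 2002 in the vehicle wells and 4927, 4698, 5006, 4633 and 5093 in the treated wells (log2 fold change 1.27 ± 0.07, adjusted p = 2.2e-15), while Aqp9, the main glycerol channel of hepatocytes, fell (-0.66 ± 0.10). Glycerol kinase Gk had signals of 2034, 1795, 1934, 1862 and 2206 in the vehicle wells and 11678, 11938, 11335, 12129 and 11613 in the treated wells (log2 fold change 2.57 ± 0.08, adjusted p = 4.0e-22), and the glycerol phosphate dehydrogenases of mitochondria and cytosol, Gpd2 and Gpd1, rose by 2.59 ± 0.13 and 1.42 ± 0.08. The last enzymes of triglyceride synthesis, Dgat1 and Dgat2, rose by 1.08 ± 0.07 and 0.58 ± 0.05. The phosphatidate phosphatases fell, namely Lpin1 (-0.97 ± 0.08), Lpin2 (-0.57 ± 0.09) and Lpin3 (-0.44 ± 0.08).

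Fatty acid synthesis split along the pathway, with 8 of 19 called up and 6 down. The cytosolic steps from citrate to palmitate were lower. Acaca, the acetyl-CoA carboxylase, had signals of 9513, 7911, 7547, 6587 and 7243 in the vehicle wells and 3299, 3699, 3506, 3641 and 4709 in the treated wells (log2 fold change -1.04 ± 0.10, adjusted p = 7.4e-10). A second probe set of Acaca was not called (-0.09 ± 0.17, adjusted p = 0.82). Fasn, the synthase, had signals of 3546, 3059, 3179.9, 2974 and 2928 in the vehicle wells and 1906, 2389, 2181, 2515 and 1657 in the treated wells (log2 fold change -0.57 ± 0.14, adjusted p = 0.0029), and the citrate lyase Acly fell (-0.88 ± 0.09), as did the liver pyruvate kinase Pklr (-0.99 ± 0.08), which fell further by a second probe set (-4.37 ± 0.48, adjusted p = 1.2e-08). Of the elongases, Elovl6 rose by 1.64 ± 0.12, Elovl2 by 0.68 ± 0.11 and Elovl5 by 0.62 ± 0.10. Of the desaturases, Fads1 rose by 1.22 ± 0.13, and the Δ9 desaturase Scd was not called (0.06 ± 0.08, adjusted p = 0.67). The malic enzyme Me1 rose by 1.06 ± 0.11.

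The promoters of these genes were searched for the repeat that PPARα binds, because the genes moved together. The 250 bases before the annotated starts were taken from RefSeq (GRCr8), for 9624 of the 11545 genes. Either strand was searched for AGGTCA followed, after 1 base of any kind, by a second AGGTCA. At most 1 mismatch was found in 46 genes (0.478%) of all 9624, in 12 of the 1148 (1.05%) called up, in 3 of the 1270 (0.236%) called down, in 5 of the 177 (2.82%) that rose at least 2-fold and in 1 of the 116 (0.862%) that fell at least 2-fold. With up to 2 mismatches the counts were 276 (2.87%) of all, 54 (4.7%) of those called up and 32 (2.52%) of those called down. They were 14 (7.91%) of the at least 2-fold rises and 1 (0.862%) of the at least 2-fold falls. A match describes these letters and does not show binding. Of the 5 genes that rose at least 2-fold, those with a role in fatty acid metabolism were Fabp1, Acot4, Acot12 and Acadvl, and the fifth was Gmnn (geminin), named for its match alone. The repeat is in capitals in the 250 bases before the start of each, shown because these members rose and hold it. Fabp1 lies on the plus strand (chr4:104749090-104749339), as do Acot4 (chr6:109399604-109399853) and Acot12 (chr2:24721709-24721958), while Acadvl lies on the minus strand (chr10:55236706-55236955). All sequences read 5′ to 3′ on the strand of the gene.
Fabp1: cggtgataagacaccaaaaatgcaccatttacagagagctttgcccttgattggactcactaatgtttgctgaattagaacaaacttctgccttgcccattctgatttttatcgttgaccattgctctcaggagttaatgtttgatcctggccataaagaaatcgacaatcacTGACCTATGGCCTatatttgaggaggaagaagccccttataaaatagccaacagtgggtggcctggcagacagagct
Acot4: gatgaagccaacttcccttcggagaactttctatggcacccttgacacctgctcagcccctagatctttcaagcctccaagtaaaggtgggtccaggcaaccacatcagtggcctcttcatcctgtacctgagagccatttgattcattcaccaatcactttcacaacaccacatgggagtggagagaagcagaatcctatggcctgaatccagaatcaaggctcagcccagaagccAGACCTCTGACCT
Acot12: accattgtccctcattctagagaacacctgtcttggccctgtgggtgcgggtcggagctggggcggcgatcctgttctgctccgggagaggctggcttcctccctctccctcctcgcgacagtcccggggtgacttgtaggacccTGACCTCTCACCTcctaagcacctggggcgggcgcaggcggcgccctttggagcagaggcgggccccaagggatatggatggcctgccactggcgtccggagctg
Acadvl: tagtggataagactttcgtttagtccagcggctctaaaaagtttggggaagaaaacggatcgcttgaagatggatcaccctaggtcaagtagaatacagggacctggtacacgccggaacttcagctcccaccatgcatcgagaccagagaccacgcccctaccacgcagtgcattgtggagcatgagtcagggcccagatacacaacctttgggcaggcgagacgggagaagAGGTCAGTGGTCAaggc
In Fabp1, Acot4 and Acot12 the repeat reads on the opposite strand of the gene and in Acadvl on the same strand. The 4 genes rose by 1.76 ± 0.09, 2.48 ± 0.11, 1.75 ± 0.12 and 1.07 ± 0.05.

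Mitochondrial carriers and uncoupling proteins had 8 of 23 called up and 2 down. Ucp2, an inner membrane carrier of the uncoupling protein family, had signals of 259.5, 131, 187, 81.2 and 89.7 in the vehicle wells and 2351, 2593, 2495, 2087 and 2703 in the treated wells. All vehicle wells were under the filter signal, against which the rise was at least 8.25-fold (log2 fold change 4.00 ± 0.25, adjusted p = 1.6e-14). Ucp3 was not called (0.00 ± 0.32). Slc25a42, which imports coenzyme A, rose by 1.56 ± 0.11. The 2 subunits of the pyruvate carrier parted, with Mpc2 up by 1.12 ± 0.06 and Mpc1 down (-0.20 ± 0.06). Slc25a15, the ornithine carrier, fell (-0.78 ± 0.07).

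In the respiratory chain 4 of 42 measured subunits were called up, against 11.6% of all genes, and 0 down, with a median of 0.04. Without the 48 h vehicle array that stood apart the counts were 11 up and 2 down, on the 24 h arrays alone 8 and 1, and with each array centred on its median 0 and 0. At 48 h, with the 48 h vehicle array that stood apart kept, 19 of the 42 were called up, against 16.8% of all genes. The difference between the times was not tested for the list. An example at 24 h is Ndufb8 (0.41 ± 0.12). In the citrate cycle and pyruvate dehydrogenase list 8 of 19 were called up and 1 down, among them the pyruvate dehydrogenase phosphatase Pdp2 (0.88 ± 0.10), citrate synthase Cs (0.51 ± 0.07) and pyruvate carboxylase Pc (0.52 ± 0.09). The NADP-dependent isocitrate dehydrogenase Idh2 fell (log2 fold change -0.90 ± 0.06, adjusted p = 2.7e-13). In glucose metabolism 9 of 30 rose and 5 fell. Fbp1, of gluconeogenesis, rose by 0.87 ± 0.07 and glycogen synthase Gys2 by 0.93 ± 0.08, while Ppp1r3b, a glycogen-targeting subunit, fell (-0.85 ± 0.11), as did the kinase Pfkfb3 (-0.71 ± 0.12) and the glucose 6-phosphate transporter Slc37a4 (-0.63 ± 0.07).

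**Figure D3:**
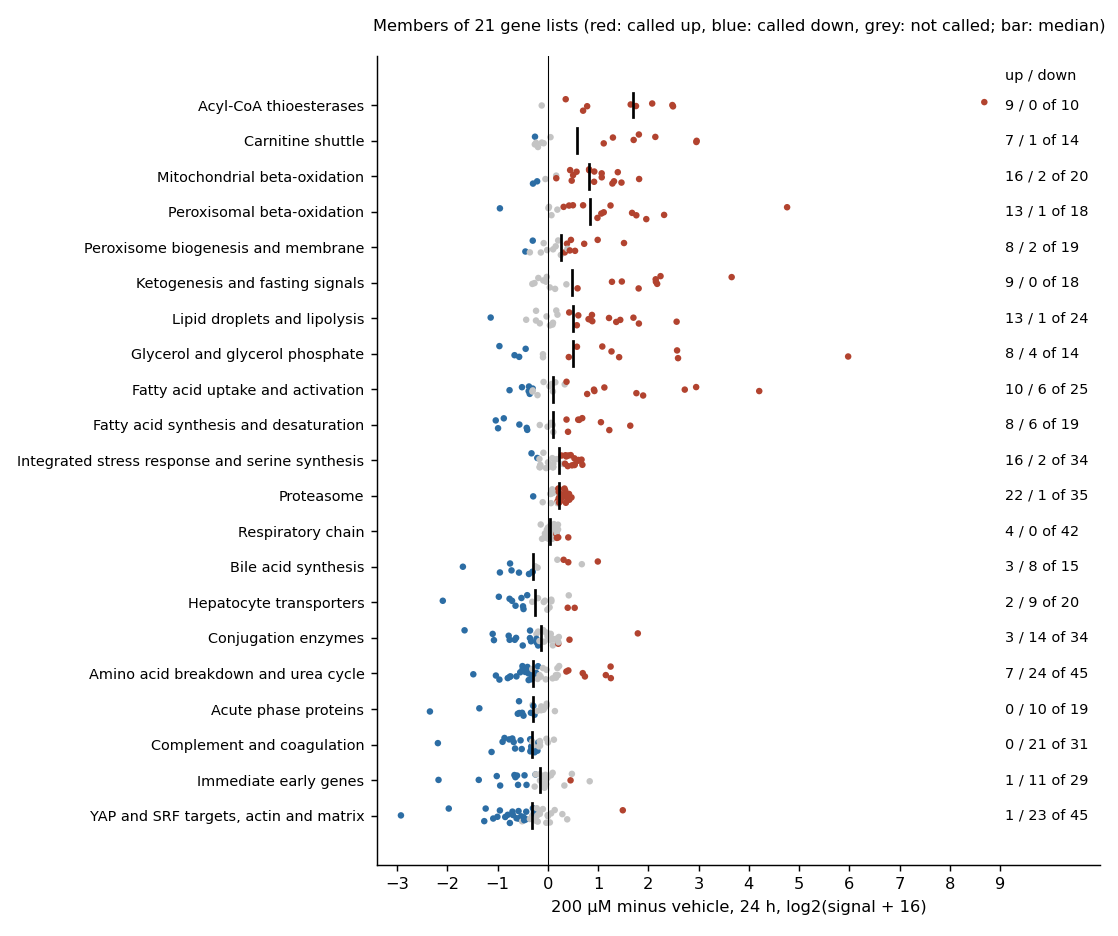
Log2 fold change (200 µM minus vehicle, 24 h) of each measured member of 21 gene lists, 1 point a gene, red if called up, blue if called down and grey if not called, with the list's median as a bar and the counts at the right. The lists of the carnitine shuttle and of mitochondrial and peroxisomal β-oxidation lie to the right, at medians of 0.58 to 0.84. The acyl-CoA thioesterases lie further right, at 1.70. Those of complement, acute phase and cytoskeletal genes lie to the left, at medians of -0.29 to -0.31.

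Bile acid synthesis was mainly lower, with 8 of 15 called down, 3 up and a median of -0.30. Cyp7a1, the rate-limiting enzyme, had signals of 1328, 1216, 1541, 1106 and 1516 in the vehicle wells and 445, 382, 442, 463 and 296 in the treated wells (log2 fold change -1.69 ± 0.22, adjusted p = 2.1e-07). The side-chain hydroxylase Cyp27a1 fell (-0.72 ± 0.07), and so did the reductase Akr1c14 (-0.58 ± 0.11) and Hsd3b7 (-0.31 ± 0.07). Cyp8b1, which sets the cholic acid share, was called up although its wells overlapped (log2 fold change 0.41 ± 0.12, adjusted p = 0.01). The bile acid receptor FXR (Nr1h4) had signals of 2831, 2318, 2663, 2414 and 2901 in the vehicle wells and 5011, 5094, 5759, 5139 and 5149.7 in the treated wells (log2 fold change 0.99 ± 0.08, adjusted p = 2.2e-11). Among 20 transporters 9 fell and 2 rose. The canalicular bile salt pump Abcb11 rose (0.39 ± 0.06), as did Abcg2 (0.53 ± 0.06). The canalicular pump Abcc2 fell (-0.53 ± 0.08), as did the phospholipid floppase Abcb4 (-0.41 ± 0.08) and the glucose transporter Slc2a2 (-0.50 ± 0.07). In cholesterol handling 3 of 25 rose and 5 fell, against 11.6% and 13.1% of all genes. The sterol exporters Abcg1 and Abcg5 rose by 1.54 ± 0.14 and 1.24 ± 0.16, and squalene epoxidase Sqle fell (-0.80 ± 0.15).

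Of 16 apolipoproteins and lipoprotein assembly genes 1 was called up and 4 down. Mttp, which loads lipid onto ApoB, rose (0.67 ± 0.08). Apoa5, a regulator of plasma triglyceride, fell (-1.07 ± 0.08), and so did Lcat (-0.76 ± 0.09).

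Drug-metabolising genes moved both ways. Of 28 cytochromes P450 outside the fatty acid hydroxylases 5 were called up and 7 down, against 11.6% and 13.1% of all genes. Cyp1a1 fell from 35833, 41456, 37979.9, 37608 and 37323 to 13991, 15558, 14298, 15046 and 14279.5 (log2 fold change -1.38 ± 0.09, adjusted p = 6.4e-14), and Cyp1a2 fell too (-0.67 ± 0.08). Cyp2c11, the male-specific form, fell (log2 fold change -0.63 ± 0.15, adjusted p = 0.0014). Cyp2e1, which oxidises ethanol and ketones, had signals of 9168, 9345, 10080.2, 8965 and 11396 in the vehicle wells and 21655, 22118, 22409, 21526 and 21746 in the treated wells (log2 fold change 1.16 ± 0.12, adjusted p = 1.1e-09). Cyp3a2 was not called (0.25 ± 0.13, adjusted p = 0.18). Of 34 conjugation enzymes 14 fell and 3 rose. Sult2a6 fell (-1.66 ± 0.26), as did Ugt2b10 (-1.07 ± 0.09) and Nat8 (-1.10 ± 0.11), while the sulfotransferase Sult1c3 rose (1.79 ± 0.17). Aldehyde dehydrogenases also split, with Aldh1a1 up (1.48 ± 0.07) and Aldh4a1 down (-1.09 ± 0.09), in a list of 23 with 3 rises and 8 falls.

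NRF2 target and antioxidant genes gave no common direction, with 4 of 26 called up and 5 down, against 11.6% and 13.1% of all genes. Nqo1 had signals of 23052, 22215, 28065, 23057 and 25175 in the vehicle wells and 21914, 21527, 23819.9, 21204 and 21589 in the treated wells, which overlapped (-0.14 ± 0.07, adjusted p = 0.19). The glutathione synthesis enzyme Gclc fell (-0.70 ± 0.07), as did sulfiredoxin Srxn1 (-0.60 ± 0.09) and Hmox1 (-0.34 ± 0.09).

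Amino acid breakdown was mainly lower, with 24 of 45 measured enzymes called down, 7 up and a median of -0.30. Histidine ammonia lyase Hal fell most (-1.49 ± 0.16). Tat had signals of 16477, 16928, 16698, 17378 and 20308 in the vehicle wells and 10693, 9555, 10171, 11282 and 10009 in the treated wells (log2 fold change -0.76 ± 0.11, adjusted p = 9.0e-07). Nags, which makes the activator of the urea cycle, fell (-0.51 ± 0.08), as did Fah (-0.50 ± 0.08), of tyrosine breakdown. With each array centred on its median 7 of the 45 were called down and 3 up. The rises included Agxt (1.25 ± 0.09), the branched-chain transacylase Dbt (1.25 ± 0.07), ornithine aminotransferase Oat (0.69 ± 0.11) and kynureninase Kynu (0.41 ± 0.07).

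Secreted defence proteins were called down and none up. Of 31 complement and coagulation genes 21 were called down, against 13.1% of all genes, and 0 up, with a median of -0.31, and of 19 acute phase genes 10 down and 0 up, with a median of -0.29. With each array centred on its median these counts were 9 and 3, again with 0 up. Plasma prekallikrein (Klkb1) had signals of 4001, 4169, 5198, 2971 and 3603 in the vehicle wells and 894, 814, 814, 704 and 1044 in the treated wells (log2 fold change -2.19 ± 0.24, adjusted p = 1.1e-08). Coagulation factor V (F5) had signals of 5305, 5672, 5275, 4658 and 3829.6 in the vehicle wells and 2329, 2098, 2183, 2614 and 2043 in the treated wells (log2 fold change -1.12 ± 0.10, adjusted p = 3.0e-11). Histidine-rich glycoprotein Hrg fell (-0.86 ± 0.11), as did C1s (-0.90 ± 0.09), C1r (-0.77 ± 0.11), the mannose-binding lectin Mbl2 (-0.71 ± 0.09) and plasminogen Plg (-0.52 ± 0.08). Steap4, a metalloreductase raised in inflammation, had a signal of 13494 ± 601 in vehicle and 2644 ± 254 in treated wells (SD, n = 5, log2 fold change -2.35 ± 0.12, adjusted p = 2.8e-17). Kininogen Kng2l1 fell (-1.36 ± 0.10), as did Itih4 (-0.58 ± 0.08), Serpina3n (-0.49 ± 0.07) and Lbp (-0.57 ± 0.10). Of 19 serpins 3 rose and 6 fell, with Serpine2 up by 3.02 ± 0.10, while Serpinf2 (-0.94 ± 0.09) and Serpina10 (-0.58 ± 0.07) fell.

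Of 41 interleukin and NF-κB genes 10 fell, against 13.1% of all genes, 3 rose and 28 were not called, with a median of -0.16. The interleukin-6 receptor Il6r fell (-1.35 ± 0.11), with its partner Il6st (-0.92 ± 0.08), the kinase Jak1 (-0.41 ± 0.06) and Stat3 (-0.68 ± 0.12). The interleukin-1 receptor Il1r1 fell (-0.71 ± 0.10), although its 2 other probe sets were not called (0.01 ± 0.23, adjusted p = 0.99, and 0.02 ± 0.28, adjusted p = 0.98), and Tnfaip3 fell (-0.53 ± 0.09). The rises were Nfkbib (0.60 ± 0.10) and Myd88 (0.46 ± 0.12), both with no overlap of wells, and Tnfrsf1b (1.80 ± 0.38). Wells of Tnfrsf1b overlapped, with all vehicle wells under the filter signal. The leukocyte markers Lyz2 and Cd68 also fell, and their part was not tested. Among hepatocyte transcription factors 9 of 29 fell and 3 rose, against 13.1% and 11.6% of all genes. Foxa3 (-1.07 ± 0.11), Cebpd (-0.85 ± 0.15), Xbp1 (-0.65 ± 0.05) and the glucocorticoid receptor Nr3c1 (-0.47 ± 0.05) were among the falls and Hlf (1.08 ± 0.13) among the rises.

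Genes of the actin cytoskeleton and matrix, many of them targets of YAP and SRF, fell in 23 of 45 cases and rose in 1, with a median of -0.31. Connective tissue growth factor (Ccn2) had signals of 13342, 11089.5, 12113, 11216 and 11916 in the vehicle wells and 1507, 1699, 1611, 1583 and 1384 in the treated wells (log2 fold change -2.93 ± 0.10, adjusted p = 9.9e-22), the deepest fall of the genes called. Vimentin (Vim), an intermediate filament that hepatocytes gain in culture, had signals of 10311, 11404, 10581, 13075 and 10597 in the vehicle wells and 2775, 2734, 2735, 2959 and 2939.5 in the treated wells (log2 fold change -1.97 ± 0.14, adjusted p = 2.4e-13). Acta2 fell (-1.24 ± 0.14), as did fibronectin Fn1 (-0.96 ± 0.07), the α-actinin Actn1 (-0.71 ± 0.09) and the tropomyosins Tpm1 (-0.58 ± 0.06) and Tpm4 (-0.85 ± 0.10). Tgfb2 was the rise (1.49 ± 0.35), with all vehicle wells under the filter signal, treated wells that overlapped them and a second probe set that was not called (-0.91 ± 0.45, adjusted p = 0.18). Acta2 is also a stellate cell marker, and that list's summed signal was lower in the treated wells as given above. Which cells the falls came from, that of Vim included, was not tested. The actin gene Actg1, named after its value was seen, fell too (-0.30 ± 0.07, adjusted p = 0.0028), beside the change in the β-actin control ratio.

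Keratin and cell junction genes, counted as 1 list, moved both ways, with 10 of 22 called down and 6 up. E-cadherin Cdh1 fell (-1.45 ± 0.12), with N-cadherin Cdh2 (-1.03 ± 0.08), Cldn3 (-0.88 ± 0.09) and desmoplakin Dsp (-0.85 ± 0.07). Connexin 26 (Gjb2) rose (0.74 ± 0.07). Krt79 rose by 3.43 ± 0.35, from signals of 9.95, 6.61, 8.90, 26.2 and 9.20 that were all under the filter signal to 226, 279.9, 309, 223 and 395, around it.

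Of 29 immediate early genes 11 fell and 1 rose, against 13.1% and 11.6% of all genes. Egr1 had signals of 1336, 1015, 1041, 946 and 1003 in the vehicle wells and 809, 613, 765, 706 and 612 in the treated wells (log2 fold change -0.59 ± 0.12, adjusted p = 2.3e-04). Junb (-1.38 ± 0.20), Ier3 (-1.02 ± 0.08), Klf6 (-0.95 ± 0.06) and Jun (-0.67 ± 0.09) fell and Klf10 rose (0.45 ± 0.06), while Fos was not called (0.83 ± 0.44, adjusted p = 0.19). In the cell cycle list 6 of 38 rose and 5 fell, against 11.6% and 13.1% of all genes. Cyclin D1 (Ccnd1) had signals of 512, 489, 805, 566 and 835 in the vehicle wells and 1021, 1250.3, 1612, 1317 and 1145 in the treated wells (log2 fold change 0.99 ± 0.24, adjusted p = 0.0021). Ccne1 rose (1.16 ± 0.30) and Pcna rose (0.31 ± 0.07), while the inhibitors Cdkn1b (-0.57 ± 0.10) and Cdkn1a (-0.19 ± 0.05) fell. The other falls were Diaph3 (-1.86 ± 0.22), Gadd45b (-0.61 ± 0.08) and Myc (-0.47 ± 0.11), and 27 of the 38 were not called.

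Changes of proteasome genes were small and mainly upward, with 22 of 35 subunits called up, 1 down and a median of 0.22. Psmd11 (0.47 ± 0.06), Psmd12 (0.43 ± 0.06) and Psma5 (0.40 ± 0.06) rose, and the immunoproteasome subunit Psmb9 fell (-0.29 ± 0.07). With each array centred on its median, 2 of the 35 were called up and 0 down. Uncentred and without the 48 h vehicle array that stood apart, 24 were called up and 1 down.

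Genes of the integrated stress response and serine synthesis were called up in 16 of 34 cases and down in 2, with a median of 0.22, and in 7 cases with each array centred on its median. Trib3, a pseudokinase raised by this response, had signals of 4527, 4228, 4704, 4291 and 5988 in the vehicle wells and 7242, 7992, 8517, 6943 and 7342 in the treated wells (log2 fold change 0.69 ± 0.17, adjusted p = 0.0023). Asparagine synthetase Asns had signals of 5501, 4954, 5578, 5508 and 5806 in the vehicle wells and 8299.5, 9023, 8319, 8716 and 9163 in the treated wells (log2 fold change 0.67 ± 0.10, adjusted p = 2.7e-06). Psph (0.61 ± 0.07), Psat1 (0.53 ± 0.09) and Phgdh (0.53 ± 0.11), the serine synthesis enzymes, rose, as did the amino acid transporter chain Slc3a2 (0.58 ± 0.07). Of 26 chaperones of the endoplasmic reticulum 1 was called up and 6 down, and Hspa5 was not called (0.13 ± 0.07, adjusted p = 0.23). Of 19 cytosolic and mitochondrial heat shock proteins and co-chaperones 2 fell and 7 rose, among the latter Dnaja1 (0.59 ± 0.07), Chordc1 (0.52 ± 0.07) and Hsph1 (0.52 ± 0.08).

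Clock genes split 4 up to 3 down among 17, with Per2 (-0.71 ± 0.11), Nfil3 (-0.66 ± 0.14) and Bhlhe40 (-0.67 ± 0.12) lower. Hlf (1.08 ± 0.13) and Nr1d2 (0.31 ± 0.08) were higher with no overlap of wells. Bhlhe41 (0.86 ± 0.30, adjusted p = 0.032) and the repressor Nr1d1 (0.45 ± 0.16, adjusted p = 0.039) were higher with wells that overlapped. With each array centred on its median 1 of the 17 was called up and 3 down. In the insulin and growth hormone axis 5 of 23 fell and 0 rose, among them the receptors Ghr (-0.40 ± 0.12), Insr (-0.37 ± 0.10) and Igf2r (-0.54 ± 0.11). Of 17 p53 targets and cell death genes 5 fell, with Sesn1 (-1.12 ± 0.09) and the death factors Bcl2l11 (-0.61 ± 0.10) and Bbc3 (-0.51 ± 0.09) among them, and 2 rose. Of 24 ectonucleotidases and purine enzymes 11 fell and 2 rose. Nt5e (CD73), which makes adenosine outside the cell, had signals of 3385, 3093, 2862, 2956 and 3144 in the vehicle wells and 1296, 1379.7, 1315, 1436 and 1536 in the treated wells (log2 fold change -1.14 ± 0.07, adjusted p = 1.5e-15), and Enpp3 fell too (-1.03 ± 0.09). In vitamin A and one-carbon metabolism 3 of 22 rose, led by retinol saturase Retsat, with signals of 10449, 9341, 9944, 9328 and 10439 in the vehicle wells and 29947, 31990.2, 31144, 29802 and 32327 in the treated wells (log2 fold change 1.65 ± 0.06, adjusted p = 1.9e-20), and 5 fell, among them the sarcosine and choline dehydrogenases Sardh (-0.92 ± 0.12) and Chdh (-0.68 ± 0.08). Iron and heme genes split 4 up to 5 down of 22, and 0 to 0 with each array centred on its median. Autophagy and lysosome genes split 3 to 3 of 35 and interferon response genes 1 to 3 of 25. Of all genes 11.6% were called up and 13.1% down.

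Among the partners of PPARα, the retinoid X receptor Rxrg rose (log2 fold change 1.15 ± 0.07, adjusted p = 4.7e-15) by 1 probe set and was not called by another (0.01 ± 0.24, adjusted p = 0.99). Of 11 measured in the list, 2 were called up and 4 down. Ppara itself did not pass the filter, with a signal of 210 ± 118 in vehicle and 94.4 ± 41.9 in treated wells (SD, n = 5).

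Probe sets of 1 gene did not always give the same value. Of the genes named above, others with a further probe set that was not called are Acot7, Crot, Bbox1, Eci1, Pex16, Lpin2, Pnpla3, Elovl5, Abcg1, Akr1c14, Cs, Pfkfb3, Nr3c1, Cebpd, Insr, Ghr, Hsph1, Psmd11, Sesn1, Bcl2l11, Tpm1, Cdh2, Jun, Cdkn1a, Ccnd1 and Lyve1. For Crot it was at -0.18 ± 0.25 (adjusted p = 0.72) and for Abcg1 at -0.56 ± 0.54 (adjusted p = 0.58). Further probe sets gave larger changes for Acaa2 (2.49 ± 0.10), Ccnd1 (2.42 ± 0.34) and Cps1 (-1.45 ± 0.08), and a smaller one for Pdk4 (2.03 ± 0.11).

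The direct contrast of 200 µM with 8 µM at 24 h asked where the higher dose went beyond or fell short of the lower one. It called 161 genes higher (1.39% of those tested) and 188 lower (1.63%) at 200 µM, a total of 349. With the 48 h vehicle array that stood apart left out, these counts were 314 and 362, and with each array centred on its median 16 and 23. Both doses were set against the same 5 vehicle wells, so their changes are given side by side and only the direct contrast was tested. Of the 349 genes, 156 were called against vehicle in the same direction at both doses, and in 121 of those the change was smaller at 200 µM. A further 96 were called at 8 µM and not at 200 µM, 70 at 200 µM and not at 8 µM, 7 in opposite directions and 20 at neither dose. Of the 30 largest rises against vehicle 1 differed between the doses, namely Aqp3, and of the 30 largest falls 3 did.

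Stress response genes were higher at 200 µM than at 8 µM in 10 of 34 cases, against 1.39% of all genes, and lower in 1. Trib3 was 0.80 ± 0.17 apart (200 µM minus 8 µM, adjusted p = 0.0039), with -0.11 ± 0.17 at 8 µM and 0.69 ± 0.17 at 200 µM against vehicle. Phgdh was 0.97 ± 0.11 apart (adjusted p = 4.0e-07), below vehicle at 8 µM (-0.44 ± 0.11) and above it at 200 µM (0.53 ± 0.11). Psat1 differed by 0.67 ± 0.09 (adjusted p = 1.2e-05), Psph by 0.56 ± 0.07 (adjusted p = 7.7e-06) and Asns by 0.45 ± 0.10 (adjusted p = 0.0053). The others were Slc3a2 (0.46 ± 0.07) and, named after their values were seen, Atf4 (0.38 ± 0.08, adjusted p = 0.002), Atf5 (0.40 ± 0.08, adjusted p = 0.0031), Chac1 (0.45 ± 0.09, adjusted p = 0.0031) and the cystine transporter Slc7a11 (0.55 ± 0.12, adjusted p = 0.0039). Fgf21 was higher as well (0.51 ± 0.11, adjusted p = 0.0063), and so was Cyp2e1 (0.56 ± 0.12, adjusted p = 0.0032). Endoplasmic reticulum chaperones were higher at 200 µM in 7 of 26 cases and lower in 1. Hsp90b1 (0.49 ± 0.08) and Ero1b (0.46 ± 0.09) are examples, and both had fallen further at 8 µM (-0.73 and -1.21) than at 200 µM (-0.24 and -0.75).

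Some targets of lipid metabolism were lower at 200 µM than at 8 µM. In glycerol handling 5 of 14 genes were lower and 0 higher, against 1.63% of all genes called lower. Aqp3 had a signal of 4566 ± 350.0 at 8 µM and 2377 ± 239 at 200 µM (SD, n = 5, difference -0.94 ± 0.23, adjusted p = 0.017). Aqp7 differed by -0.70 ± 0.07 (adjusted p = 2.1e-07) and Dgat1 by -0.36 ± 0.07 (adjusted p = 0.0018). Among lipid droplet genes 5 of 24 were lower, Mgll (-0.59 ± 0.09), Ces1d (-0.51 ± 0.11), Cidec (-0.51 ± 0.11), Plin5 (-0.43 ± 0.11) and Lipa (-0.29 ± 0.06). In peroxisomal β-oxidation 5 of 18 were lower, led by Acot8 (-0.54 ± 0.10, adjusted p = 9.7e-04), and Fabp1 was lower too (-0.46 ± 0.09, adjusted p = 0.001). Each of the genes named here had risen against vehicle at both doses.

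Genes of cholesterol synthesis and uptake differed in another way. Of 25 genes 6 were lower at 200 µM than at 8 µM and 1 was higher, against 1.63% and 1.39% of all genes. None of the 6 lower genes was called against vehicle at 200 µM by the probe set representing the gene. Hsd17b7, named after its value was seen, was 0.70 ± 0.09 from vehicle at 8 µM and 0.02 ± 0.09 at 200 µM (difference -0.68 ± 0.09, adjusted p = 1.2e-05). The same pattern was seen for Scarb1 (0.48 ± 0.13 and -0.07 ± 0.13, adjusted p of the difference = 0.014) and Msmo1 (0.45 ± 0.09 and 0.03 ± 0.09, adjusted p = 0.0031), also chosen after their values were seen. Idi1 (-0.38 ± 0.08, adjusted p = 0.0031), Dhcr7 (-0.30 ± 0.08, adjusted p = 0.017) and Fdft1 (-0.27 ± 0.07, adjusted p = 0.015), chosen likewise, complete the count. A second probe set of Hsd17b7 was called up against vehicle at 200 µM (0.24 ± 0.07, adjusted p = 0.0069).

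Large dose differences were also found in single genes of other kinds. Entpd1 (CD39), an ectonucleotidase, had a signal of 687 ± 55.8 at 8 µM and 103 ± 38.1 at 200 µM (SD, n = 5, adjusted p of the difference = 1.2e-05). Its vehicle and 200 µM wells were all under the filter signal, against which the 8 µM wells were at least 2.36-fold higher. Lmcd1, a LIM domain protein, fell at 200 µM (-1.51 ± 0.15) and was at -0.02 ± 0.15 at 8 µM (difference -1.49 ± 0.15, adjusted p = 4.9e-08). The serine protease Prss23 differed by -1.14 ± 0.19 and the kinetochore gene Spc24 by -0.98 ± 0.11, both higher than vehicle at either dose. Ugt2b1, a glucuronosyltransferase, was at -2.08 ± 0.12 from vehicle at 8 µM and at -0.76 ± 0.12 at 200 µM (difference 1.32 ± 0.12, adjusted p = 2.6e-08). Mat1a, which makes the methyl donor S-adenosylmethionine, differed by 1.00 ± 0.10 and was called against vehicle at 8 µM alone (-1.26 ± 0.10). Tat differed by 0.78 ± 0.11 (adjusted p = 1.4e-05) and Ccn2 by 0.63 ± 0.10 (adjusted p = 8.9e-05), both having fallen further at 8 µM.

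**Figure D4:**
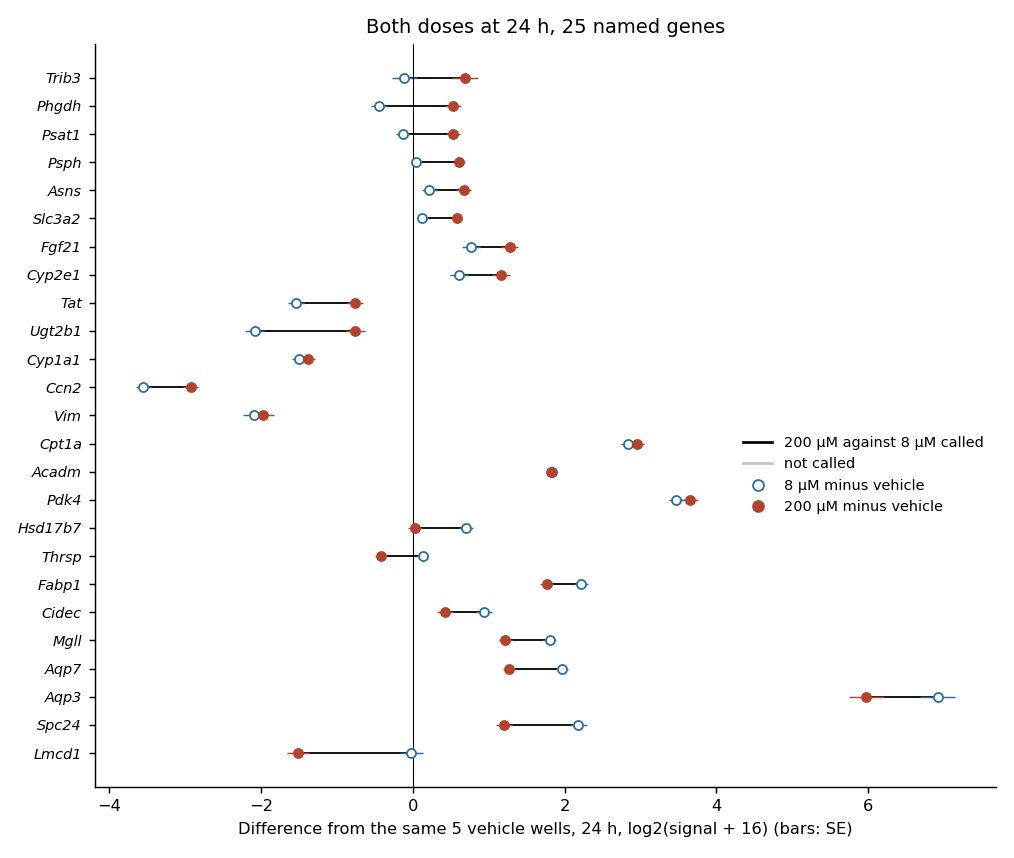
Difference from the same 5 vehicle wells at 24 h on the log2(signal + 16) scale for 25 named genes, 8 µM as open blue and 200 µM as filled red points, with SE bars. A black line joins points whose direct contrast was called. Trib3 moved from -0.11 to 0.69 and Lmcd1 from -0.02 to -1.51, while Acadm was at 1.83 and 1.82. The vehicle wells of Aqp3 were all under the filter signal, so its values depend on the added constant.

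The same dose was followed to 48 h in other wells, which shows how far the 24 h changes lasted. At 48 h, 1936 genes (16.8%) were called up and 1969 (17.1%) down against the 48 h vehicle. The mean of that vehicle group includes the array that stood apart, and so does every 48 h effect given here. Of the genes called up at 24 h, 1096 (81.5%) were called up at 48 h, which is 56.6% of the 48 h list. Of those called down, 1105 (73.2%) were called down at 48 h, 56.1% of that list. Over both directions 77.1% were called again, and 73.5% with the 48 h vehicle array that stood apart left out. Among changes of at least 2-fold, 186 of 212 rises and 119 of 146 falls were called again. All of the 30 largest rises and 27 of the 30 largest falls were called in the same direction. No gene called up was called down later, and 6 genes called down were called up, namely Hmox1 (-0.34 and 0.30), Dmgdh (-0.46 and 0.34) and, chosen after their values were seen, Thrsp (-0.42, adjusted p = 5.7e-05, and 0.30), Eva1a (-0.35, adjusted p = 0.0038, and 0.25), Dixdc1 (-0.16, adjusted p = 0.039, and 0.28) and Rab40b (-0.36, adjusted p = 1.7e-04, and 0.19). A second probe set of Rab40b was not called at 24 h (-0.19 ± 0.19, adjusted p = 0.59).

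The difference between the effects at 48 h and 24 h was called for 150 genes upward (1.3%) and 128 downward (1.11%). With the 48 h vehicle array that stood apart left out, the total was 488 in place of 278. The values of single genes that follow keep that array in the 48 h vehicle mean. The effect on Fabp1 grew from 1.76 ± 0.09 at 24 h to 3.17 ± 0.09 at 48 h (difference 1.41 ± 0.12, adjusted p = 2.3e-09). Cyp2e1 (0.67 ± 0.17) and Aqp7 (0.69 ± 0.11) also had larger effects later, as did Spc24 (1.23 ± 0.16) and Oat (1.02 ± 0.16). Cyp4a1 had a smaller effect at 48 h (3.16 ± 0.09, difference -0.69 ± 0.13, adjusted p = 0.001). Falls were deeper at 48 h in several genes. The decoy receptor Il1r2 went from -1.07 ± 0.17 to -3.49 ± 0.17 (adjusted p of the difference = 4.0e-08), the neuropeptide Npy from -1.22 ± 0.08 to -3.39 ± 0.08, the protease inhibitor A2m from -0.34 ± 0.11 to -2.14 ± 0.11, S100a6 from -1.01 ± 0.11 to -2.46 ± 0.11 and Ccn2 from -2.93 ± 0.10 to -4.19 ± 0.10 (adjusted p = 4.2e-07). Pnpla3 and the glycine cleavage gene Gldc had fallen at 24 h (-1.14 and -1.21) and were not called at 48 h (-0.03 and -0.20), with called differences of 1.11 ± 0.21 and 1.01 ± 0.15. A further Gldc probe set had also fallen at 24 h (-1.465 ± 0.158), and another was not called (-0.42 ± 0.34, adjusted p = 0.48). The stress response gene Trib3 was at 1.09 ± 0.17 at 48 h, a difference that was not called (adjusted p = 0.49).

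**Figure D5:**
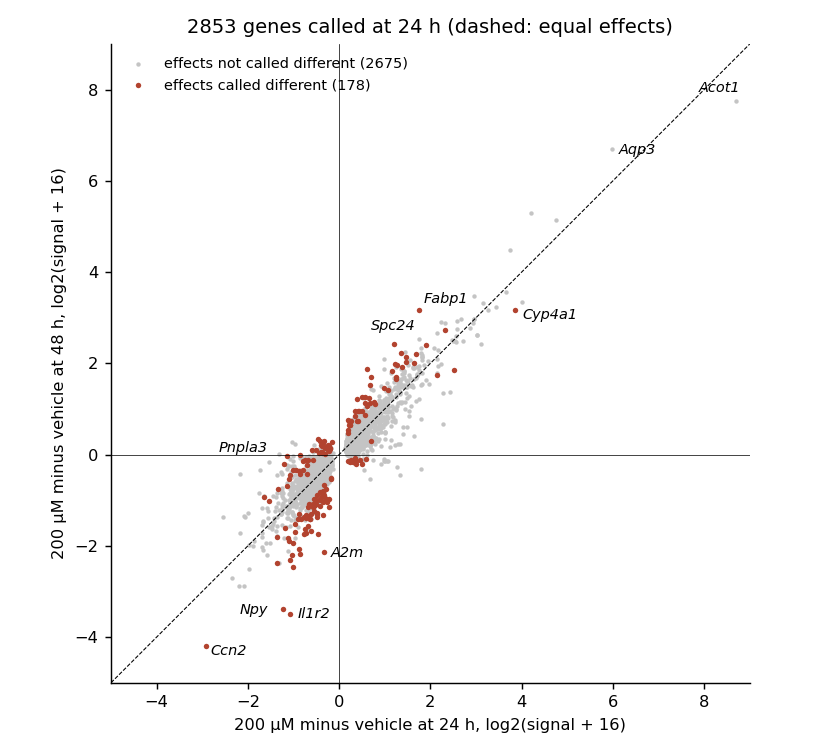
Effect of 200 µM against vehicle at 48 h (vertical) and at 24 h (horizontal), both on the log2(signal + 16) scale, for the 2853 genes called at 24 h. The wells at the 2 times are different, and the 48 h vehicle group includes the array that stood apart. Red marks the genes whose effects were called different, and the dashed line is equality. Most points lie near the line, with Fabp1 above it and Il1r2, Npy, A2m and Ccn2 below it.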

How the data were processed

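The deposited values are the series matrix's linear signal intensities, 1 per probe set and array, from the authors' MAS5 summarization per the submitters' processing notes. Its version, scaling target and chip definition are not given in the sources used here. A constant of 16 was added before log2. Probe sets above 281.361 (the 40th percentile) on at least 5 of 30 arrays were kept (21282), and of those with 1 symbol (15629) each of 11545 genes was represented by the probe set with the highest mean. Symbols came from the platform annotation. limma 3.58.1 (R 4.3.3) fitted 1 mean per group over all 30 arrays with a variance trend. Tests were two-sided, and Benjamini-Hochberg adjusted p-values had a threshold of 0.05. The fit was tested on simulated data. Tables and figures used Python 3.11.15, pandas 2.3.3 and matplotlib 3.10.9. Promoters were RefSeq's (GRCr8).

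The members and gene lists were chosen with earlier results of these data known, and the gene lists name 1310 genes in all (1112 measured). The text names a fixed set of core genes, the 30 largest rises and falls among called genes with wells apart, listed genes by their change, and the largest differences by dose and time, and says where others were chosen after their values were seen. Alternatives were other constants, filters, normalizations, models and left-out arrays.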

Additional observations from a re-analysis of the deposited data

Results flagged for a closer look

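In 214 groups of 5 wells, for 107 genes, 13 had a highest or lowest well whose gap to its nearest neighbour exceeded 0.71 of the group's range. Chance gives such a gap in about 1 of 20 groups, here 10.7. The well lay lowest among the vehicle wells for Ehhadh (gap 0.816 of the range) and Diaph3 (0.919), and highest for Egr1 (0.723), Tat (0.745), Krt79 (0.779) and Slc25a34 (0.818). Among the treated wells it lay lowest for Creb3l3 (0.802), Plin4 (0.742), Calml4 (0.852) and Abca8a (0.736), and highest for Nr1h4 (0.804), Nqo1 (0.717) and Aig1 (0.853). In Ehhadh the whole range of the vehicle wells was 889 to 921.

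Effects of 200 µM that differed between 48 h and 24 h, tested as the difference itself with limma, were found for 13 of the core genes and the genes with the largest changes. The 48 h vehicle array that stood apart was kept. The effect at 48 h minus that at 24 h was 1.41 for Fabp1, 0.709 for Adora2b, 0.688 for Aqp7, 0.669 for Cyp2e1, 0.645 for Hmox1, 0.528 for Tcim and 0.339 for Acadvl. It was -1.27 for Ccn2, -1.05 for Cyp2c11, -0.694 for Cyp4a1, -0.659 for Rab30, -0.40 for Txnip and -0.32 for Cdkn1a. Among 5300 kept probe sets with no gene symbol, which the comparisons left out, 50 were called up at least 2-fold and 39 down with no overlap of wells.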

How the results depend on the processing

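No called value changed sign under the alternatives tried. Of 423 named genes called at 24 h, 282 were called under each alternative and 141 lost the call under at least 1, of which 130 lost it when each array was centred on its median and 52 under some other setting. Another probe set existed for 113 of them, and of 155 such probe sets 89 were called in the same direction, 0 in the opposite and 66 not.

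Centring gave 683 genes up and 670 down against vehicle, 16 higher and 23 lower than at 8 µM, and 28 that differed between times. Centring with the 48 h vehicle array that stood apart left out gave 296 lower than at 8 µM. A fold change of at least 1.5 left 427 up and 488 down, 22 higher and 32 lower than at 8 µM, and 112 between times. The 24 h arrays alone gave 280 higher and 314 lower than at 8 µM. Array weights gave 353 and 397, and 528 between times, where quantile normalization gave 449. Centring moved the share of rises among the called from 47.1% to 50.5%. Leaving out single arrays gave 1185 to 1690 up and 1341 to 1881 down, 117 to 314 higher and 137 to 362 lower than at 8 µM, and 214 to 488 between times. The highest of each came without 48 h vehicle replicate 4. The share called again at 48 h ranged from 73.5% to 79.8%, and the difference in the β-actin ratio from 0.377 to 0.521. The causes were not tested. The labels give no replicate number that treated and vehicle wells share. Each run of 6 consecutive array numbers held 1 array of every group, and with these runs as a block 1373 genes were called up and 1552 down. The number of arrays limits the precision, and low signals are the least certain: 15 named changes moved by over 0.5 between added constants of 1 and 64.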

Other observations

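Of the 30 largest rises, 10 had all vehicle wells under the filter signal, and several lie outside lipid metabolism. The kinase Nim1k rose at least 4.07-fold against the filter signal (log2 fold change 3.75 ± 0.30, adjusted p = 3.9e-12), the mitochondrial carrier Slc25a34 at least 1.11-fold (log2 fold change 3.14 ± 0.41, adjusted p = 2.3e-07) and Qpct, glutaminyl-peptide cyclotransferase, at least 4.13-fold (log2 fold change 3.10 ± 0.16, adjusted p = 1.6e-16). The phosphate transporter Slc34a2, known from lung, had signals of 195, 286, 273, 221 and 321 in the vehicle wells and 2376, 2087, 2238, 2152 and 1537 in the treated wells (log2 fold change 2.93 ± 0.16, adjusted p = 4.0e-16), and the calcium channel subunit Cacna2d3 rose by 2.88 ± 0.23. The small GTPase Rab30 had signals of 2127, 2257, 2704, 2248 and 3075 in the vehicle wells and 14282, 14650.2, 13584, 13941 and 13909.7 in the treated wells (log2 fold change 2.51 ± 0.09, adjusted p = 4.6e-21). Treated and vehicle wells of Slc34a2 and Rab30 did not overlap. The androgen-induced gene Aig1, a hydrolase of branched fatty acid esters, rose by 2.54 ± 0.06, and a dimmer probe set of it was not called (0.13 ± 0.35, adjusted p = 0.88), so the probe sets of this gene disagree.

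The largest falls outside the lists were as mixed. The guanylate cyclase receptor Gucy2c, known from intestine, had signals of 3691, 3554, 3561, 4025 and 3262 in the vehicle wells and 782, 1209, 1115, 889 and 874 in the treated wells (log2 fold change -1.89 ± 0.11, adjusted p = 1.9e-15). The mitochondrial basic amino acid carrier Slc25a29 fell (-1.69 ± 0.11), as did the adenosine receptor Adora2b (-1.65 ± 0.14) and Rab11fip5 (-1.60 ± 0.10), an effector of recycling endosomes. The glycosyltransferase B4galt5 fell by its brighter probe set (-1.66 ± 0.15) and was not called by another (-0.14 ± 0.26, adjusted p = 0.81). Adora2b senses adenosine outside the cell, and Nt5e and Enpp3, which handle extracellular nucleotides, fell as well.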
